A study of Mus musculus with 8 samples.

Results

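The kinesin and tubulin genes are the 56 symbols, of 23235 in the deposited expression tables, that read Kif followed by a number and at most 1 letter, or Tub followed by a, b, d, e or g, a number and at most 1 letter. They comprise 37 kinesin genes and 19 tubulin genes. The kinesins were divided by the main work of their products into 13 spindle, 12 transport and 9 ciliary kinesins and 3 others. The tubulins were 7 alpha, 8 beta, 2 gamma, 1 delta and 1 epsilon gene.

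Microtubules are polymers of paired alpha- and beta-tubulin, nucleated by gamma-tubulin, and delta- and epsilon-tubulin help to build the centriole. Kinesins are motor proteins that walk along microtubules or take them apart. Spindle kinesins separate poles and chromosomes and build the midbody, transport kinesins carry vesicles and organelles, and ciliary kinesins build and drive the axoneme. A male germ cell uses all of them in turn: it divides at the end of meiotic prophase, remains joined to its sisters by intercellular bridges, and later grows a flagellum.

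RNA was sequenced from spermatocytes of male C57BL/6 mice, which the study's methods give as 6 weeks old. The cells were flow-sorted by Hoechst and propidium iodide fluorescence into a leptotene and zygotene fraction (LZ) and a pachytene and diplotene fraction (PD). WT cells were compared with Cnot4-null cells from Cnot4 fl/fl;Stra8-Cre males, in which exon 2 of Cnot4 is removed in germ cells by a Cre recombinase under the Stra8 promoter. Cnot4 encodes a ubiquitin ligase that binds the CCR4-NOT deadenylase, and the question was how messenger RNA changes between the stages with and without it. The 4 groups, WT LZ, Cnot4-null LZ, WT PD and Cnot4-null PD, had 2 libraries each, which the methods call biological replicates. Values are FPKM, fragments scaled to transcript length and to the mapped reads of a library, so levels of different genes are compared per length.

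Cnot4 itself was at 36.03 and 34.9 FPKM (WT LZ), 43.2 and 34.6 (Cnot4-null LZ), 76.6 and 73.1 (WT PD) and 65.9 and 53.5 (Cnot4-null PD). The Cnot4-null libraries overlapped the WT libraries at LZ and lay below them at PD. Its log2 change between the genotypes was 0.12 at LZ (adjusted p 1) and -0.33 at PD (adjusted p 0.193). FPKM over the whole gene cannot show the loss of 1 exon, so these values do not measure the deletion.

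The libraries were first checked against marker genes of the sorted stages. The 9 pachytene markers summed to 271 and 388 FPKM (WT LZ), 289 and 130 (Cnot4-null LZ), 12675 and 11816 (WT PD) and 6045 and 2310 (Cnot4-null PD). They separated the stages in both genotypes, with Ldhc the most abundant in 7 of the 8 libraries and Hspa2 in the remaining one, and they were lower in Cnot4-null PD than in WT PD. The 8 of 9 early spermatocyte markers found summed to 1800 and 2100 FPKM (WT LZ), 3764 and 2153 (Cnot4-null LZ), 1432 and 1456 (WT PD) and 1149 and 737 (Cnot4-null PD), with Sycp3 the most abundant throughout. From LZ to PD in WT, 4 of these 8 were called lower and 1 higher, against 36.2% and 21.6% of all genes tested. Dmc1, which acts in early recombination, fell from 75.7 and 91.5 FPKM in WT LZ to 1.16 and 0.5901 in WT PD, and does not stand for the whole list.

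The Cnot4-null PD libraries stood apart from the other 6 in markers of other cells. The 6 Leydig cell markers summed to 10021 and 22204 FPKM in Cnot4-null PD, 115 and 7.07 in WT PD and at most 19.02 in the 4 LZ libraries. Insl3 was the most abundant of them everywhere, at 9669 and 21608 FPKM in Cnot4-null PD, and none of the 6 was at 0 there. The 8 round spermatid markers summed to 16026 and 7199 FPKM in Cnot4-null PD, 439 and 279.7 in WT PD, 1838 and 1530.5 (WT LZ) and 4056 and 712 (Cnot4-null LZ), led by Prm1 in 6 libraries and Prm2 in 2. The 9 spermatogonial markers summed to 334 and 436 FPKM in Cnot4-null PD and 68.2 and 83.4 in WT PD, against 442 to 673 in LZ, with Uchl1 leading in all but WT PD, where Id4 led. Nanos2 was listed at 0 in Cnot4-null PD replicate 2 and at 1.00 FPKM in replicate 1. These sums place spermatid and Leydig signal above every other library in Cnot4-null PD, and spermatogonial signal between WT PD and LZ.

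Somatic lists with lower sums were also above WT PD there. The 5 smooth-muscle (myoid) markers summed to 63.9 and 293 FPKM in Cnot4-null PD and 3.89 and 2.39 in WT PD, with Acta2 leading in the former. The 9 of 10 Sertoli markers found summed to 107 and 215 in Cnot4-null PD and 12.3 and 21.1 in WT PD, led by Clu, with Fshr listed at 0 in all 4. In WT LZ that list stood at 75.0 and 65.9 FPKM and in Cnot4-null LZ at 7.41 and 12.3. The 6 of 7 macrophage markers found summed to 18.1 and 85.8 in Cnot4-null PD and 1.90 and 1.78 in WT PD, with 25.3 in WT LZ replicate 1, and the 3 endothelial markers to 1.54 and 5.59 against 0.0677 and 0.116. The 2 Cnot4-null PD libraries also differed from each other: all 8 spermatid markers were higher in replicate 1, while 5 of 6 Leydig, 5 of 5 myoid and 5 of 6 Sertoli markers above 1 FPKM were higher in replicate 2. Between genotypes at PD, limma called 7 of 9 spermatogonial, 7 of 8 spermatid and 5 of 8 Sertoli markers higher, against 41.6% of all genes tested. It also called 6 of 6 Leydig, 5 of 5 myoid and 3 of 5 macrophage markers higher, and 1 Sertoli marker lower. Of 8 early spermatocyte markers, 3 were higher and 4 lower. Of 9 pachytene markers, limma called 0 higher and 2 lower (0 and 4 at an unadjusted p under 0.05), against 11.5% of all genes lower. The 3 endothelial markers summed to at most 0.416 FPKM outside Cnot4-null PD. The 1 tested thus passed the limit of 1 FPKM only in Cnot4-null PD, where it is high, and its call is not counted. From LZ to PD in Cnot4-null, 8 of 8 spermatid and 4 of 8 Sertoli markers were called higher, against 27.8% of all genes. Called higher there as well were 6 of 6 Leydig, 5 of 5 myoid and 3 of 5 macrophage markers. In WT, 6 of 9 spermatogonial and 5 of 8 Sertoli markers were called lower, against 36.2%. Other markers low outside Cnot4-null PD may also have passed the limit of 1 FPKM only there. The whole myoid list summed to at most 5.15 FPKM outside Cnot4-null PD, led by Tagln. The counts of Leydig, myoid and macrophage markers are therefore not read against the shares of all genes. Counts for such lists are then partly set by that limit in both comparisons with Cnot4-null PD. The part of other cells in each difference given here was not tested, and the labels do not say whether the sort gates of the 2 genotypes were the same. In bulk samples like these, fewer cells of a type and less RNA per cell cannot be told apart.

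Scale differed between the groups as well. The number of genes above 1 FPKM was 11538 to 11823 in the 4 LZ libraries, 10103 and 10076 (WT PD) and 13887 and 14249 (Cnot4-null PD). Over the 15899 genes tested, the median log2 change was -0.32 from LZ to PD in WT, 0.19 from LZ to PD in Cnot4-null, 0.00 between genotypes at LZ and 0.66 between genotypes at PD. With quantile normalization these medians became -0.06, -0.29, 0.01 and -0.10, and with every library rescaled to the same median they became 0.05, -0.22, 0.02 and -0.21. Median changes of the spindle, transport and ciliary kinesins and of the tubulins are therefore also given relative to the median of all genes tested.

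Each gene with more than 1 FPKM in at least 1 library was fitted in limma on log2(FPKM + 1), with the 4 groups sharing 1 estimate of spread on 4 residual degrees of freedom. A gene was called higher or lower at a two-sided adjusted p under 0.05 over all 15899 genes. An exact permutation test of 2 against 2 libraries cannot give a p below 0.333, so the calls rest on that shared estimate. Of the 56 members, 47 were tested. Of the 9 that were not, Kif12 and Tubb1 were listed at 0 in all 8 libraries, and Kif1a, Kif3c, Kif19a, Kif26b, Tubb2b, Tubb4a and Tubg2 reached at most 0.353, 0.825, 0.159, 0.0787, 0.660, 0.537 and 0.961 FPKM. Counts are over the tested members.

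**Figure D1:**
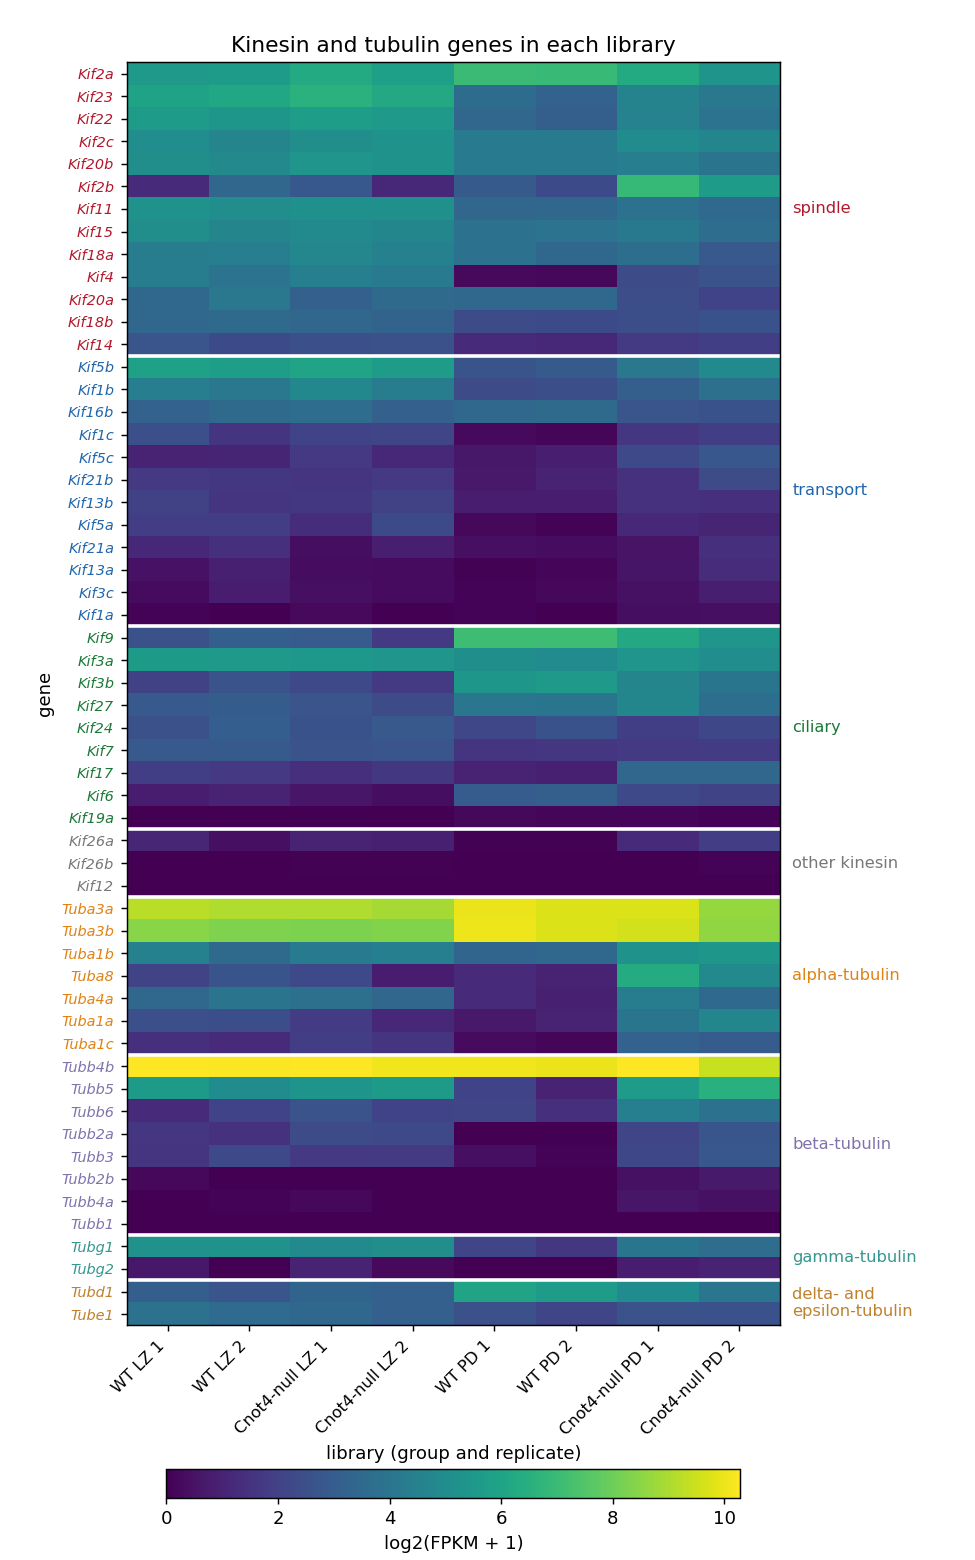
Expression of the 56 members, grouped by role and ordered by mean level, in each of the 8 libraries, as log2(FPKM + 1). Tubb4b, Tuba3a and Tuba3b form the bright lines in all libraries, Kif4 is dark only in the 2 WT PD libraries, and Kif2b and Tuba8 are bright only in the 2 Cnot4-null PD libraries.

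From LZ to PD in WT, 7 of the 47 tested members were called higher, against 21.6% of all genes tested, and 25 were called lower, against 36.2%. With quantile normalization the counts were 7 higher (25.9% of all genes) and 17 lower (30.3%), and with the common median 9 higher (32.5%) and 17 lower (26.8%). The share of members called lower was 53.2%, 36.2% and 36.2% under the 3 scalings, each above that of all genes. Under quantile normalization it was near the 30.3% of all genes, and the difference in shares was not tested. Quantile normalization lost the lower calls of Kif13b, Kif14, Kif17, Kif18b, Kif20b, Kif2c, Kif7, Tuba1a and Tuba1c, and the common median those of Kif13b, Kif15, Kif17, Kif18b, Kif20b, Kif2c, Kif3a and Tube1, with Kif20b, Kif2c and Kif3a turning to 0.16, 0.197 and 0.31. Of the 25 lower calls, 18 were kept with each library left out in turn, as were 5 of the 7 higher calls, Kif3b, Kif6, Kif9, Tuba3b and Tubd1.

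In Cnot4-null cells, 13 members were called higher from LZ to PD, against 27.8% of all genes, and 14 lower, against 18.2%. Under quantile normalization 11 were higher (18.7% of all genes) and 20 lower (31.4%), and with the common median 10 were higher (20.9%) and 20 lower (32.6%). Without Cnot4-null LZ replicate 2 the higher count was 8 (18.2% of all genes) and the lower count 9 (12.1%), and without Cnot4-null LZ replicate 1 the lower count was 7 (9.01%). The count in either direction therefore moved with single LZ libraries.

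Between the genotypes at LZ, limma called none of the 47 members higher, against 0.0692% of all genes, and none lower, against 0.0252%. At an unadjusted p under 0.05 there was 1 member in each direction. The median change of the tested members was -0.05, and the extremes were Tuba1a at -0.99 and Tubb2a at 0.79. No call was made at LZ with this design, which does not show that the levels were equal.

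Between the genotypes at PD, 22 members were called higher, against 41.6% of all genes, and 7 lower, against 11.5%. The split was 14 higher (17.8% of all genes) and 12 lower (25.6%) under quantile normalization and 15 higher (23.3%) and 21 lower (40.1%) with the common median. Left without WT PD replicate 2, the fit called 14 higher (22.9% of all genes) and 0 lower (2.59%), and without WT PD replicate 1 it called 0 lower (2.96%). At an unadjusted p under 0.05 these fits had 3 and 5 lower. Without Cnot4-null PD replicate 2 the fit called 1 lower (6.89%). The share of all genes called lower thus fell in these fits too. So 14 of the 22 higher calls were kept with each library left out, and 0 of the 7 lower calls. Under both other scalings, 12 of the 22 higher and 6 of the 7 lower calls were kept. Quantile normalization lost the higher calls of Kif1b, Kif1c, Kif21b, Kif22, Kif23, Kif26a, Kif2c and Kif5c and the lower call of Kif9, and the common median the higher calls of Kif1b, Kif21b, Kif22, Kif23, Kif2c, Kif5b and Tuba1b.

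The difference between the genotype effects at the 2 stages was tested as an interaction. It was called positive for 13 members, against 26.0% of all genes, and negative for 2, against 3.97%. Under quantile normalization it was positive for 6 (9.74% of all genes) and negative for 6 (12.4%), and with the common median positive for 9 (13.6%) and negative for 18 (32.4%). The 13 positive calls became 8 without Cnot4-null LZ replicate 2 (13.3% of all genes) and 8 without either WT PD library (10.7% and 10.1%). The 2 negative calls, Kif2a and Tubd1, became 4 without Cnot4-null PD replicate 1 (13% of all genes), 1 without Cnot4-null PD replicate 2 (4.13%) and 0 in limma without any of the other 6 libraries (0.333% to 1.64%), where 2 to 4 stood at an unadjusted p under 0.05.

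**Figure D2:**
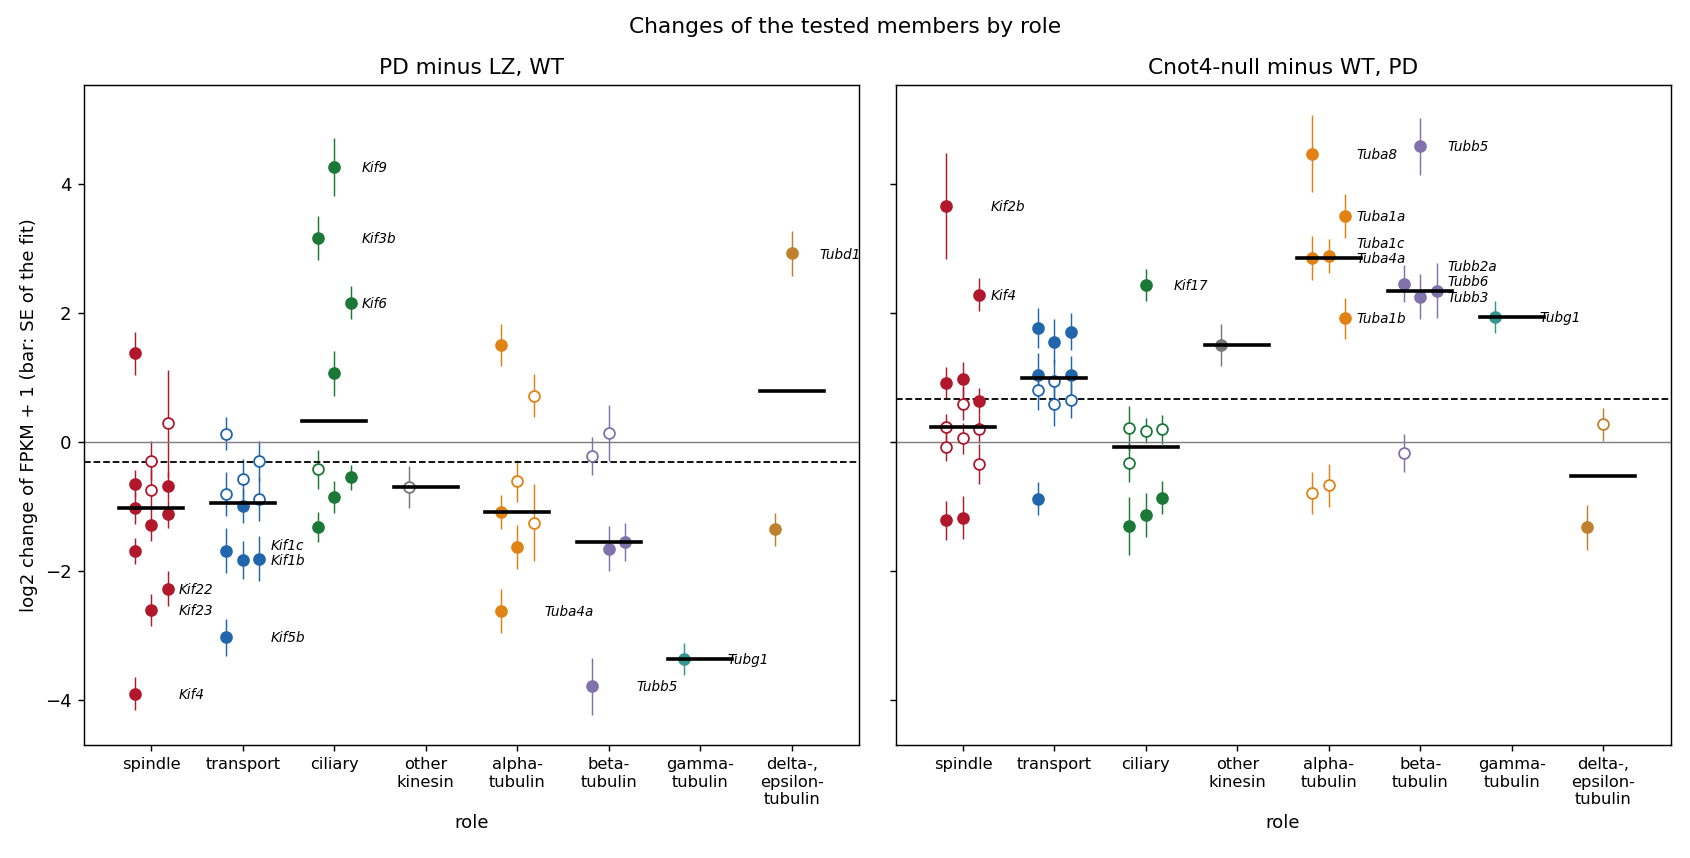
Log2 change of each tested member by role, from LZ to PD in WT (left) and between Cnot4-null and WT at PD (right), with filled points for called members, bars for the SE of the fit, solid lines for the median of a role and a dashed line for the median of all genes tested, -0.32 and 0.66. Spindle, transport, alpha- and beta-tubulin medians lie below 0 on the left under all 3 scalings, and alpha- and beta-tubulin medians lie above 0 on the right under all 3, while the spindle and transport medians on the right change sign with the scaling.

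The spindle kinesins were all tested. From LZ to PD in WT, 1 of the 13 was called higher and 9 lower (21.6% and 36.2% of all genes), with a median log2 change of -1.02, which is -0.71 relative to the median of all genes. The relative median was -0.45 under quantile normalization and -0.23 with the common median. Their summed level was 358 and 345 FPKM (WT LZ), 434 and 373 (Cnot4-null LZ), 244 and 229 (WT PD) and 349 and 203 (Cnot4-null PD). The most abundant one changed from Kif23 in all 4 LZ libraries to Kif2a in WT PD and Kif2b in Cnot4-null PD.

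Kif23 encodes a subunit of centralspindlin, which bundles the midzone and, in the testis, is found at intercellular bridges. It was at 62.3 and 69.1 FPKM (WT LZ), 92.8 and 72.96 (Cnot4-null LZ), 11.4 and 8.52 (WT PD) and 23.1 and 16.5 (Cnot4-null PD). All 4 LZ libraries lay above all 4 PD libraries, and within PD both Cnot4-null libraries lay above both WT libraries. The log2 change was -2.61 (SE 0.25, adjusted p 0.000119) from LZ to PD in WT and 0.92 (SE 0.25, adjusted p 0.0189) between genotypes at PD, where it became 0.28 and -0.42 under quantile normalization and the common median. The call for Kif23 at PD was lost without each of Cnot4-null PD replicate 1 and WT PD replicate 2 in turn (0.69 and 0.72).

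Kif22 encodes a chromokinesin that pushes chromosome arms away from the poles. Its levels were 48.5 and 42.2 FPKM (WT LZ), 53.7 and 44.6 (Cnot4-null LZ), 9.64 and 7.57 (WT PD) and 22.4 and 13.9 (Cnot4-null PD). LZ and PD did not overlap in either genotype, and Cnot4-null PD lay above WT PD. Its change in WT was -2.28 (SE 0.27, adjusted p 0.0003). At PD its change between genotypes was 0.97 (SE 0.27, adjusted p 0.0206), and 0.25 and -0.36 under the other scalings. The call for Kif22 at PD was lost without each of Cnot4-null PD replicate 1, WT PD replicate 1 and WT PD replicate 2 in turn (0.64, 1.13 and 0.81).

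Kif11, the motor that drives spindle poles apart, was at 36.5 and 32.2 FPKM (WT LZ), 34.7 and 34.4 (Cnot4-null LZ), 9.601 and 10.2 (WT PD) and 13.2 and 10.4 (Cnot4-null PD). All LZ libraries lay above all PD libraries, and Cnot4-null PD lay just above WT PD. The change in WT was -1.697 (SE 0.201, adjusted p 0.0003) and that between genotypes at PD 0.23 (SE 0.201, adjusted p 0.353), the latter becoming -0.57 and -1.09 under the other scalings. Kif15, which can take over the work of Kif11, was called lower in WT as well, at -1.02 (SE 0.24, adjusted p 0.00849). The call for Kif15 from LZ to PD in WT was lost without each of WT LZ replicate 1 and WT PD replicate 1 in turn (-0.82 and -0.99).

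The promoters of spindle kinesins were read for letters that recur at cell-cycle genes. RefSeq promoters (GRCm38.p6, 250 bases before to 50 after the start) were matched by symbol for 47 of the 56 members; none was matched for Kif13b, Kif19a, Kif20a, Kif21b, Kif5a, Kif5b, Tubb2b, Tubb6 and Tubg1. On either strand, TTTGAA was present in 9 of 12 spindle kinesin promoters (75.0%), 0 of 8 transport, 1 of 8 ciliary and 2 of 16 tubulin promoters, against 18.1% of all 27025 promoters. CCAAT was present in 7 of 12 spindle promoters (58.3%), 1 of 8 transport, 5 of 8 ciliary and 9 of 16 tubulin promoters, against 37.9% of all. None of the 3 motifs searched contains another. A match describes letters and not a bound site.

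The 3 promoters given here belong to spindle kinesins called lower from LZ to PD in WT that hold TTTGAA before the start, chosen after their values were seen. They are the 250 bases before the start of Kif11 (chr19:37376132-37376381, strand +), Kif15 (chr9:122950831-122951080, strand +) and Kif22 (chr7:127042421-127042670, strand -), with CCAAT or its complement ATTGG and TTTGAA or its complement TTCAAA in capitals. In each, 1 TTCAAA lies within 19 bases of the start. Kif14 and Kif2c, also called lower with the letters before the start, hold them farther away, at -228 and -103.
Kif11: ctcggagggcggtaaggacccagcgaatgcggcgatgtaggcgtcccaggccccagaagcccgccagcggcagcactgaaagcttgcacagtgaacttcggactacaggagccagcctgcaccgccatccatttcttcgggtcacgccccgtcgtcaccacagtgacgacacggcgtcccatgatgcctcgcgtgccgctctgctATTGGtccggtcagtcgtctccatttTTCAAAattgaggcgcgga
Kif15: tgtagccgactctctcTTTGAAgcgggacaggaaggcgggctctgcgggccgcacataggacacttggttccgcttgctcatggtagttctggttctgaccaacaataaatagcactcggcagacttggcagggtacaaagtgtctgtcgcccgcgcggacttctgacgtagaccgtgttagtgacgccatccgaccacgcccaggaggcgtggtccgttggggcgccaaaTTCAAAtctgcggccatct
Kif22: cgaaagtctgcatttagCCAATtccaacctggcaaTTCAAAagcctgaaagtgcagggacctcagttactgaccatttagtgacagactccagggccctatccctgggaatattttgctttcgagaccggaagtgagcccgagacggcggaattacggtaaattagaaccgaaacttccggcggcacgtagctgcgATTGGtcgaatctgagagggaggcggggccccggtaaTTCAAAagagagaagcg

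Kif4, a chromokinesin of chromosome condensation and the midzone, is the only member on the X chromosome. It was at 19.8 and 14.003 FPKM (WT LZ), 20.7 and 18.5 (Cnot4-null LZ), 0.199 and 0.156 (WT PD) and 4.301 and 5.16 (Cnot4-null PD). WT PD lay far below every other group, and Cnot4-null PD lay between WT PD and LZ, with no overlap. The change was -3.91 (SE 0.26, adjusted p 3.19e-05) from LZ to PD in WT, -1.85 (SE 0.26, adjusted p 0.00156) in Cnot4-null and 2.28 (SE 0.26, adjusted p 0.000583) between genotypes at PD, and the last kept its direction under both other scalings (1.06 and 1.62). Among 648 tested genes on X, 403 were called lower and 6 higher from LZ to PD in WT, with a median of -1.77, and 482 were called higher and 2 lower in Cnot4-null PD against WT PD, with a median of 1.95. Over all 15202 tested genes placed on a chromosome, 5665 were called lower and 3230 higher in WT, 6382 were called higher and 1736 lower at PD, and those medians were -0.36 and 0.66. About 14.3% of the 50-base windows of the Kif4 transcript also lie in transcripts of the overlapping gene Pdzd11.

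The kinesin-13 genes among the spindle kinesins, whose products depolymerize microtubules, went different ways. Kif2a was at 46.3 and 49.5 FPKM (WT LZ), 76.5 and 54.6 (Cnot4-null LZ), 127 and 124 (WT PD) and 77.7 and 38.7 (Cnot4-null PD). WT PD was above every other library, and the 2 Cnot4-null PD libraries fell on either side of the LZ range. Its change was 1.37 (SE 0.33, adjusted p 0.00905) in WT and -1.18 (SE 0.33, adjusted p 0.0213) between genotypes at PD, with the same sign under both other scalings, -0.99 and -2.595. The call for Kif2a from LZ to PD in WT was lost without each of WT LZ replicate 1 and WT PD replicate 1 in turn (1.32 and 1.35). The call for Kif2a at PD was lost without each of Cnot4-null PD replicate 2, WT PD replicate 1 and WT PD replicate 2 in turn (-0.68, -1.16 and -1.196). The Kif2a transcript shares 22.5% of its 50-base windows with the overlapping gene Dimt1, so its level is less certain.

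Kif2b was at 1.36 and 9.54 FPKM (WT LZ), 6.04 and 1.28 (Cnot4-null LZ), 6.51 and 3.92 (WT PD) and 118 and 48.6 (Cnot4-null PD). The Cnot4-null PD libraries were above all others by a wide gap, and the remaining 6 overlapped, with up to 9.54 FPKM in a single LZ library. Its change between genotypes at PD was 3.66 (SE 0.83, adjusted p 0.00948), with 3.04 and 2.34 under the other scalings. The call for Kif2b at PD was lost without each of Cnot4-null PD replicate 1 and WT PD replicate 2 in turn (3.03 and 3.35). Kif2c, at 32.2 and 24.99 FPKM (WT LZ), 33.01 and 38.3 (Cnot4-null LZ), 18.1 and 17.3 (WT PD) and 30.2 and 25.6 (Cnot4-null PD), was more even. Its WT PD libraries lay below all others and Cnot4-null PD overlapped LZ. The change at PD was 0.63 (SE 0.21, adjusted p 0.0401), and it became 0.24 and -0.75 under the other scalings. The call for Kif2c at PD was lost without each of Cnot4-null LZ replicate 1, Cnot4-null LZ replicate 2, Cnot4-null PD replicate 1, WT PD replicate 1 and WT PD replicate 2 in turn (0.63, 0.63, 0.51, 0.66 and 0.595).

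Kif20a brings the chromosomal passenger complex to the midzone. It was at 9.89 and 16.2 FPKM (WT LZ), 7.805 and 10.7 (Cnot4-null LZ), 10.1 and 10.3 (WT PD) and 4.46 and 3.21 (Cnot4-null PD). Both Cnot4-null PD libraries lay below the other 6, which overlapped across stage. The change between genotypes at PD was -1.22 (SE 0.303, adjusted p 0.0136), and -2.36 and -2.44 under the other scalings. The call for Kif20a at PD was lost without each of Cnot4-null PD replicate 2, WT PD replicate 1 and WT PD replicate 2 in turn (-1.03, -1.23 and -1.21). It overlaps Cdc23, with which 31.8% of its 50-base windows are shared. The 5 remaining spindle kinesins, Kif14, Kif15, Kif18a, Kif18b and Kif20b, ranged from 3.93 to 39.6 FPKM in LZ and from 1.27 to 20.4 in PD. Of these, 4 were called lower in WT and Kif18a was not, though it was without either Cnot4-null PD library (-0.74). The call for Kif20b from LZ to PD in WT was lost without each of WT LZ replicate 1, WT PD replicate 1 and WT PD replicate 2 in turn (-0.56, -0.697 and -0.68). At PD limma called 0 of the 5 between genotypes on the deposited scale (0 at an unadjusted p under 0.05), and Kif18a lower without Cnot4-null PD replicate 1 (-0.75). Under quantile normalization Kif14, Kif18a and Kif18b were called lower at PD (-0.898, -1.25 and -1.13), and with the common median Kif15, Kif18a, Kif18b and Kif20b (-1.29, -1.64, -0.98 and -1.44).

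Between genotypes at PD, 5 spindle kinesins were called higher and 2 lower (41.6% and 11.5% of all genes), with a median of 0.23. Relative to all genes it was -0.43, and it changed sign to -0.60 under quantile normalization and -0.98 with the common median. Only Kif2b and Kif4 of the 5 higher calls were kept under both other scalings.

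The transport kinesins were mostly low. Of the 12, 10 were tested, and their summed level was 103 and 93.5 FPKM (WT LZ), 114 and 93.6 (Cnot4-null LZ), 22.6 and 25.3 (WT PD) and 41.9 and 66.2 (Cnot4-null PD). In WT, limma called 0 higher (0 at an unadjusted p under 0.05) and 5 lower from LZ to PD, against 21.6% and 36.2% of all genes, with a median of -0.94, or -0.62 relative to all genes. Between genotypes at PD, 5 were higher and 1 lower (41.6% and 11.5% of all genes), with a median of 0.99, or 0.32 relative to all genes. That median changed to -0.16 under quantile normalization and 0.29 with the common median, so its sign depended on the scaling.

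Kif5b, a heavy chain of conventional kinesin that carries many cargoes, supplied 54.5% to 57.2% of the transport sum in LZ. It was at 58.7 and 53.1 FPKM (WT LZ), 63.5 and 51.05 (Cnot4-null LZ), 5.41 and 6.52 (WT PD) and 16.5 and 28.5 (Cnot4-null PD). All LZ libraries exceeded all PD libraries, and Cnot4-null PD exceeded WT PD. Its change was -3.03 (SE 0.28, adjusted p 0.00011) in WT and 1.71 (SE 0.28, adjusted p 0.00278) between genotypes at PD, with 1.03 and 0.398 under the other scalings, the latter not called. Of its 50-base windows, 21.3% recur elsewhere in the genome.

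The other heavy chains of conventional kinesin were low. Kif5c was at 1.03 and 1.11 FPKM (WT LZ), 2.31 and 1.22 (Cnot4-null LZ), 0.579 and 0.795 (WT PD) and 3.79 and 5.84 (Cnot4-null PD). Only Cnot4-null PD stood above the rest. The change at PD was 1.76 (SE 0.31, adjusted p 0.00369), and 0.36 and 0.88 under the other scalings. Kif5a was at 2.63 and 2.68 FPKM (WT LZ), 1.54 and 4.004 (Cnot4-null LZ), 0.178 and 0.0864 (WT PD) and 1.27 and 1.08 (Cnot4-null PD), with WT PD lowest, Cnot4-null PD next and LZ highest. It was called lower in WT (-1.69, SE 0.35, adjusted p 0.00447) and was not called between genotypes at PD (0.94, SE 0.35, adjusted p 0.0551), though it was without either Cnot4-null LZ library (0.94).

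Kif1b encodes a carrier of mitochondria and synaptic vesicle precursors. It was at 19.9 and 16.4 FPKM (WT LZ), 26.7 and 19.5 (Cnot4-null LZ), 4.12 and 4.59 (WT PD) and 7.66 and 12.8 (Cnot4-null PD). LZ lay above PD throughout, and Cnot4-null PD lay above WT PD. The change was -1.84 (SE 0.29, adjusted p 0.00128) in WT and 1.03 (SE 0.29, adjusted p 0.0222) at PD, where it became 0.02 and -0.21 under the other scalings. The call for Kif1b at PD was lost without each of Cnot4-null PD replicate 2, WT PD replicate 1 and WT PD replicate 2 in turn (0.696, 0.97 and 1.096). Kif1c, another vesicle carrier of the same family, was at 4.62 and 1.91 FPKM (WT LZ), 3.25 and 3.41 (Cnot4-null LZ), 0.195 and 0.107 (WT PD) and 2.06 and 2.74 (Cnot4-null PD). WT PD was lowest, and Cnot4-null PD overlapped LZ. Its change at PD was 1.55 (SE 0.35, adjusted p 0.00965), and 0.33 and 1.001 under the other scalings. The call for Kif1c at PD was lost without each of Cnot4-null PD replicate 2, WT PD replicate 1 and WT PD replicate 2 in turn (1.41, 1.61 and 1.4998).

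Kif21b, which acts on microtubule growth as well as transport, was at 2.25 and 2.195 FPKM (WT LZ), 1.94 and 2.28 (Cnot4-null LZ), 0.646 and 1.05 (WT PD) and 1.77 and 4.16 (Cnot4-null PD). WT PD lay below all others, and Cnot4-null PD replicate 2 above all others. The change at PD was 1.04 (SE 0.34, adjusted p 0.0379), and it became -0.42 and 0.19 under the other scalings. The call for Kif21b at PD was lost without each of Cnot4-null LZ replicate 1, Cnot4-null LZ replicate 2, Cnot4-null PD replicate 2, WT LZ replicate 1, WT LZ replicate 2, WT PD replicate 1 and WT PD replicate 2 in turn (1.04, 1.04, 0.59, 1.04, 1.04, 0.88 and 1.1999). Kif16b, a carrier of early endosomes, ran the other way, at 8.34 and 10.9 FPKM (WT LZ), 11.8 and 7.97 (Cnot4-null LZ), 10.2 and 10.8 (WT PD) and 5.48 and 5.01 (Cnot4-null PD). Both Cnot4-null PD libraries lay below the other 6, and the change was -0.88 (SE 0.26, adjusted p 0.0256), with -1.96 and -2.14 under the other scalings. The call for Kif16b at PD was lost without each of Cnot4-null PD replicate 2, WT PD replicate 1 and WT PD replicate 2 in turn (-0.83, -0.92 and -0.84). The other tested transport kinesins, Kif13a, Kif13b and Kif21a, ranged from 0.03845 to 3.08 FPKM, and of these only Kif13b was called, as lower in WT (-0.996, SE 0.27, adjusted p 0.0154). The call for Kif13b from LZ to PD in WT was lost without each of WT LZ replicate 1, WT PD replicate 1 and WT PD replicate 2 in turn (-0.78, -0.995 and -0.997). Without either Cnot4-null PD library, Kif13a, Kif21a and Kif21b were also called lower in WT (-0.58, -0.89 and -0.81), and without Cnot4-null PD replicate 1, Kif13a and Kif21a higher at PD (1.17 and 1.003). Kif13a was above 1 FPKM only in Cnot4-null PD replicate 2, on which its test and that call rest.

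The ciliary kinesins rose in sum from 76.6 and 84.2 FPKM (WT LZ) and 71.8 and 63.4 (Cnot4-null LZ) to 240.2 and 239.7 (WT PD) and 181.5 and 119 (Cnot4-null PD). Of the 9, 8 were tested. In WT, 4 were called higher and 3 lower from LZ to PD (21.6% and 36.2% of all genes), with a median of 0.32, which was 0.63 above that of all genes and 0.86 and 1.06 above it under the other scalings. Between genotypes at PD, 1 was higher and 3 lower (41.6% and 11.5% of all genes), with a median of -0.07, or -0.74 relative to all genes. That relative median was -1.08 and -1.13 under the other scalings. Transport and ciliary kinesins together, set against the spindle kinesins, had 4 higher and 8 lower of 18 in WT, beside the same shares of all genes, and a median of -0.69. At PD they had 6 higher and 4 lower between genotypes, with a median of 0.61 that changed sign to -0.41 and -0.17 under the other scalings. The difference between the roles was not tested.

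Kif9 encodes a motor of the central pair of the sperm flagellum. It was at 4.81 and 7.56 FPKM (WT LZ), 6.84 and 2.34 (Cnot4-null LZ), 134 and 135 (WT PD) and 72.3 and 39.8 (Cnot4-null PD). All PD libraries exceeded all LZ libraries, and WT PD exceeded Cnot4-null PD. The log2 change of 4.26 (SE 0.45, adjusted p 0.00019) in WT was the largest rise of any member, and in Cnot4-null it was 3.42 (SE 0.45, adjusted p 0.00135). Its change at PD was -1.31 (SE 0.45, adjusted p 0.0445), which quantile normalization changed to -1.09, no longer called, and the common median to -2.73. The call for Kif9 at PD was lost without each of Cnot4-null PD replicate 1, Cnot4-null PD replicate 2, WT LZ replicate 1, WT LZ replicate 2, WT PD replicate 1 and WT PD replicate 2 in turn (-1.73, -0.88, -1.31, -1.31, -1.31 and -1.301).

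Kif3a and Kif3b encode the paired motor subunits that carry building material to the ciliary tip. Kif3a was at 47.8 and 46.8 FPKM (WT LZ), 43.3 and 40.3 (Cnot4-null LZ), 34.2 and 29.9 (WT PD) and 40.4 and 32.4 (Cnot4-null PD). WT LZ lay above WT PD, while the stages overlapped in Cnot4-null. Kif3b was at 2.98 and 5.23 FPKM (WT LZ), 3.77 and 2.33 (Cnot4-null LZ), 42.97 and 44.4 (WT PD) and 24.6 and 15.1 (Cnot4-null PD). PD lay above LZ without overlap, and WT PD lay above Cnot4-null PD, and only in WT PD did Kif3b exceed Kif3a. The change of Kif3b was 3.17 (SE 0.34, adjusted p 0.000196) in WT and -1.14 (SE 0.34, adjusted p 0.0268) at PD, with -1.38 and -2.52 under the other scalings, and that of Kif3a was -0.55 (SE 0.19, adjusted p 0.0412) and 0.17 (SE 0.19, adjusted p 0.46). Under the other scalings that of Kif3a became -0.601 and 0.31 in WT, so that the fall was not kept with the common median, and 0.01 and -1.22 at PD. The call for Kif3b at PD was lost without each of Cnot4-null PD replicate 2, WT PD replicate 1 and WT PD replicate 2 in turn (-0.801, -1.16 and -1.11). The WT call of Kif3a was lost without any single library except the 2 Cnot4-null PD libraries, at -0.65 to -0.46.

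Kif6, another ciliary motor, was at 0.702 and 1.02 FPKM (WT LZ), 0.551 and 0.3099 (Cnot4-null LZ), 6.97 and 7.59 (WT PD) and 3.78 and 3.298 (Cnot4-null PD). The order of the groups was as for Kif3b, with no overlap between PD and LZ or between genotypes at PD. Its change was 2.16 (SE 0.26, adjusted p 0.000299) in WT and -0.87 (SE 0.26, adjusted p 0.0252) at PD, and -2.1002 and -2.06 under the other scalings. The call for Kif6 at PD was lost without each of WT PD replicate 1 and WT PD replicate 2 in turn (-0.92 and -0.81). Kif27, a partner of the central apparatus of motile cilia, was at 6.39 and 7.22 FPKM (WT LZ), 5.47 and 4.08 (Cnot4-null LZ), 15.6 and 14.9 (WT PD) and 25.7 and 12.3 (Cnot4-null PD). PD exceeded LZ, while the genotypes overlapped at PD. The change was 1.06 (SE 0.34, adjusted p 0.0317) in WT and 0.21 (SE 0.34, adjusted p 0.614) at PD, and -0.39 and -1.14 under the other scalings. The WT call was lost without any single library except the 2 Cnot4-null PD libraries, at 0.98 to 1.14. Kif7, a regulator of Hedgehog signalling at the ciliary tip, was at 6.41 and 6.61 FPKM (WT LZ), 5.24 and 5.62 (Cnot4-null LZ), 1.93 and 2.09 (WT PD) and 2.34 and 2.54 (Cnot4-null PD), highest in LZ in both genotypes, and was called lower in WT (-1.32, SE 0.23, adjusted p 0.00192) but not between genotypes at PD (0.19, SE 0.23, adjusted p 0.493), where it became -1.29 and -0.81.

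Kif17, a kinesin-2 motor that in the testis also moves the transcriptional coactivator Act, was at 2.75 and 2.25 FPKM (WT LZ), 1.69 and 2.196 (Cnot4-null LZ), 0.978 and 0.896 (WT PD) and 9.48 and 9.38 (Cnot4-null PD). Cnot4-null PD exceeded every other library, and the 2 values there were nearly equal. The change was -0.85 (SE 0.25, adjusted p 0.0202) in WT, 1.83 (SE 0.25, adjusted p 0.00143) in Cnot4-null and 2.43 (SE 0.25, adjusted p 0.000406) between genotypes at PD, and the last remained called under both other scalings (1.22 and 1.42). The call for Kif17 from LZ to PD in WT was lost without each of WT LZ replicate 1, WT PD replicate 1 and WT PD replicate 2 in turn (-0.75, -0.88 and -0.82). Kif24, which restrains cilium growth at the centriole, ranged from 2.73 to 7.502 FPKM and was not called in either comparison on the deposited scale. Its change at PD was -0.32 (SE 0.303, adjusted p 0.387), and it was called lower there under both other scalings, at -1.67 and -1.46 (adjusted p 0.0061 and 0.00471).

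The promoters of the ciliary kinesins were read for GTTGCC, one side of the X-box found at many ciliary genes. GTTGCC was present in 4 of 8 ciliary promoters, 2 of 8 transport, 2 of 12 spindle and 2 of 16 tubulin promoters, against 12.7% of all. The 3 sequences are those of Kif3a (chr11:53567119-53567368, strand +) and Kif17 (chr4:138262001-138262250, strand +), which hold it before the start, and of Kif3b (chr2:153291166-153291415, strand +), which rose in WT and does not. They were chosen after the values were seen. GTTGCC is in capitals, as is CCAAT where present or its complement, and TTTGAA is in none of the 3. In Kif9 the letters lie after the start, at base 10, and in Kif6 and Kif27 they are absent from this window.
Kif3a: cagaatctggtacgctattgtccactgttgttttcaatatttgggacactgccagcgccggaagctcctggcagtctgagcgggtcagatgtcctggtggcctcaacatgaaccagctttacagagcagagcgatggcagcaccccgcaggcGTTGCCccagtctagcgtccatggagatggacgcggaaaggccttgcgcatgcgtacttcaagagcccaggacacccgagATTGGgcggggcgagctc
Kif17: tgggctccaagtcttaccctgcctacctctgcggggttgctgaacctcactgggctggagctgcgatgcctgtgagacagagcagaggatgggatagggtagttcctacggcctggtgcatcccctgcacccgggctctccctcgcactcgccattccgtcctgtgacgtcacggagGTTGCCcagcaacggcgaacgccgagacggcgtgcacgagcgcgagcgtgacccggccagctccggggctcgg
Kif3b: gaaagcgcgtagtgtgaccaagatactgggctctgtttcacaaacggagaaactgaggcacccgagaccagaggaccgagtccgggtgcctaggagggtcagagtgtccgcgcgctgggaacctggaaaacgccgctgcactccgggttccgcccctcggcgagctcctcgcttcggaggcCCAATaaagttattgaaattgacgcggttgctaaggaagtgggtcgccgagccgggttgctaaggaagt

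Of the 3 other kinesins only Kif26a, which has lost its motor activity and acts in signalling, was tested. It was at 1.14 and 0.351 FPKM (WT LZ), 1.02 and 0.855 (Cnot4-null LZ), 0.0381 and 0.0524 (WT PD) and 1.39 and 2.67 (Cnot4-null PD). WT PD was lowest, Cnot4-null PD highest, and LZ lay between them. The change at PD was 1.502 (SE 0.33, adjusted p 0.00873), and 0.46 and 1.07 under the other scalings. The call for Kif26a at PD was lost without each of WT PD replicate 1 and WT PD replicate 2 in turn (1.49 and 1.51).

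The tubulins held most of the members' signal. Their summed level was 2323 and 2184 FPKM (WT LZ), 2233 and 2002.5 (Cnot4-null LZ), 3206 and 2794 (WT PD) and 3126 and 1742 (Cnot4-null PD), against 390.4 to 621 FPKM for the 37 kinesins. Of the 19 tubulins, 15 were tested. In WT, 2 were called higher and 8 lower from LZ to PD (21.6% and 36.2% of all genes), with a median of -1.25, or -0.94 relative to all genes and -0.58 and -0.74 under the other scalings. Between genotypes at PD, 10 were higher and 1 lower (41.6% and 11.5% of all genes), with a median of 2.25, or 1.59 relative to all genes. That relative median was 1.45 under quantile normalization and 1.36 with the common median, and the median itself kept its sign at 1.35 and 1.15.

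Nearly all alpha-tubulin came from a pair of testis-enriched genes with similar coding sequence. Tuba3a was at 601 and 536 FPKM (WT LZ), 537 and 482 (Cnot4-null LZ), 1012 and 861 (WT PD) and 839.95 and 407 (Cnot4-null PD). Tuba3b was at 350.3 and 316 FPKM (WT LZ), 308 and 324 (Cnot4-null LZ), 1034 and 863 (WT PD) and 769 and 384 (Cnot4-null PD). Both were highest in WT PD. Cnot4-null PD replicate 2 lay below LZ for Tuba3a and just above it for Tuba3b. From LZ to PD in WT the change was 0.72 (SE 0.34, adjusted p 0.108) for Tuba3a and 1.502 (SE 0.32, adjusted p 0.00537) for Tuba3b. Neither was called at PD (-0.67, SE 0.34, adjusted p 0.126, and -0.796, SE 0.32, adjusted p 0.0724), but without Cnot4-null PD replicate 1 both were called lower (-1.20 and -1.295). Without either Cnot4-null PD library, Tuba3a was called higher in WT PD than in WT LZ (0.72). Under quantile normalization and the common median, the change in WT was 0.34 and 1.602 for Tuba3a, called with the latter, and 1.11 and 2.39 for Tuba3b, called with both. At PD it was -0.398 and -2.11 for Tuba3a and -0.52 and -2.23 for Tuba3b, and both were called lower with the common median. The 2 genes share 50-base windows, 32.4% of those of Tuba3a and 27.4% of those of Tuba3b. As only uniquely mapped reads were kept, reads from these may be missing from both levels and from their sum.

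As a share of summed alpha-tubulin FPKM, Tuba3a and Tuba3b together made up 95.8% and 95.9% (WT LZ), 95.5% and 95.9% (Cnot4-null LZ), 99.4% and 99.2% (WT PD) and 91% and 87.4% (Cnot4-null PD). The share was highest in WT PD and lowest in Cnot4-null PD, without overlap. Tuba3a alone made up 57.4% to 60.7% of the sum in LZ and 45% to 49.6% in PD. A single factor for each library, as with the common median, leaves a share as it is. Quantile normalization can change it, and no share was computed under it. Unequal loss of reads from repeated sequence may also bias a share. Of 50-base windows, 66.4% of Tuba3a and 70.5% of Tuba3b are found nowhere else, against 14.3% of Tuba1b.

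**Figure D3:**
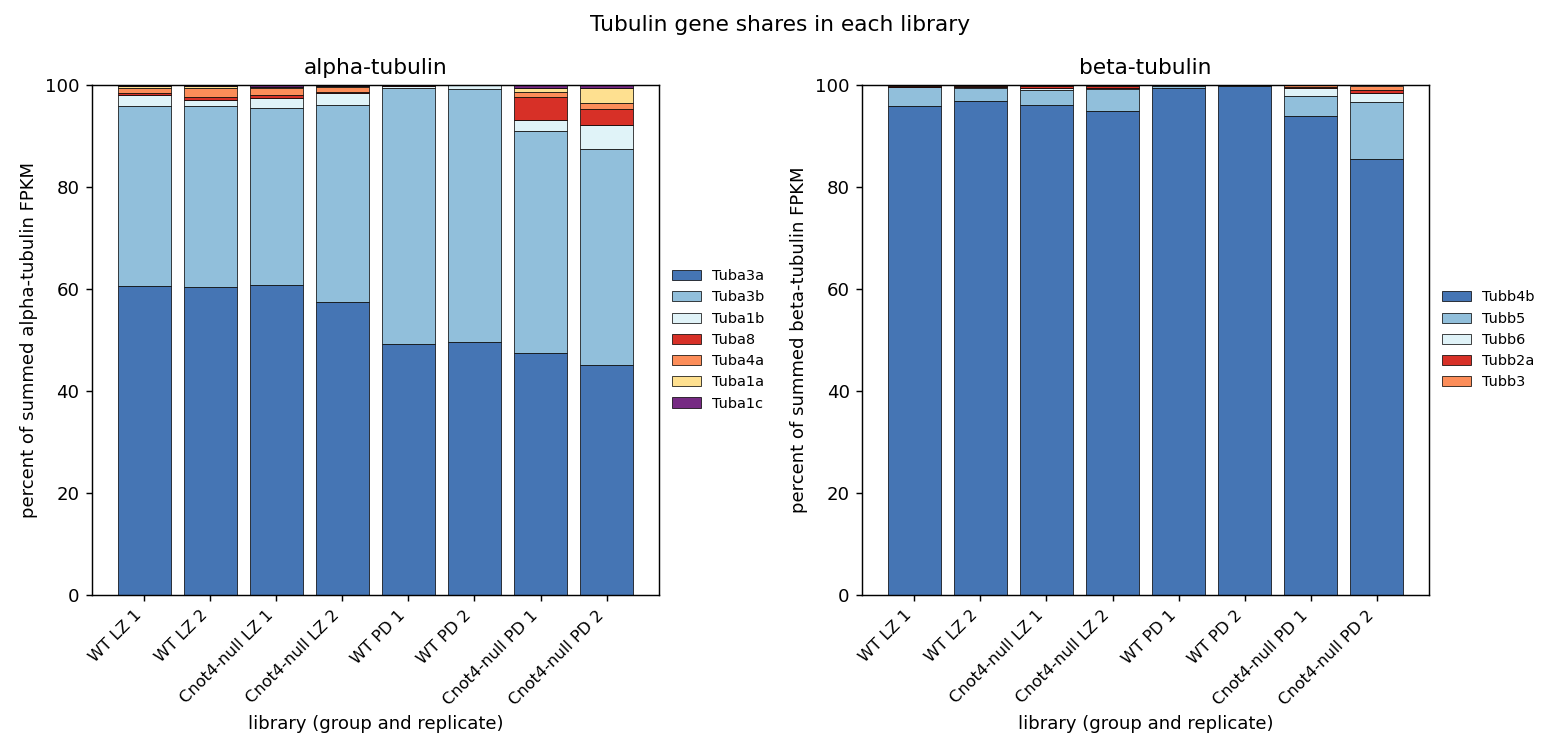
Percent of the summed FPKM of alpha-tubulin genes (left) and beta-tubulin genes (right) that each gene contributed in each library, for genes that reached 1 FPKM. Tuba3a and Tuba3b, and Tubb4b, fill nearly the whole bar in WT PD (99.2% and 99.7% in replicate 2), and the remaining genes are widest in Cnot4-null PD replicate 2.

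The 5 minor alpha-tubulins were all called higher in Cnot4-null PD than in WT PD. Tuba8, a divergent isotype, was at 3.29 and 5.39 FPKM (WT LZ), 3.79 and 0.719 (Cnot4-null LZ), 1.36 and 1.05 (WT PD) and 78.3 and 28.9 (Cnot4-null PD). The 2 Cnot4-null PD values lay far above the other 6 and replicate 1 was the higher. The change was 4.47 (SE 0.6001, adjusted p 0.00119) at PD, with 3.63 and 3.36 under the other scalings. It was 4.43% and 3.20% of alpha-tubulin in Cnot4-null PD and at most 0.607% elsewhere. Of its 50-base windows, 99.8% are found nowhere else.

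Tuba4a, whose gene lacks the code for the final tyrosine of other alpha-tubulins, was at 9.84 and 14.4 FPKM (WT LZ), 12.8 and 9.55 (Cnot4-null LZ), 1.32 and 0.888 (WT PD) and 18.8 and 10.5 (Cnot4-null PD). WT PD was lowest, and Cnot4-null PD overlapped LZ. The change was -2.63 (SE 0.34, adjusted p 0.000479) in WT and 2.85 (SE 0.34, adjusted p 0.000758) at PD, with 1.74 and 1.798 under the other scalings. It shares 29.1% of its 50-base windows with the overlapping gene Stk16, so part of its signal may not be its own.

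Tuba1a, Tuba1b and Tuba1c are the alpha-tubulins of most other tissues. Tuba1a was at 4.71 and 4.56 FPKM (WT LZ), 2.52 and 1.27 (Cnot4-null LZ), 0.646 and 1.01 (WT PD) and 15.1 and 25.5 (Cnot4-null PD). Cnot4-null PD exceeded all other libraries and WT PD lay below all. Tuba1b was at 22.2 and 10.7 FPKM (WT LZ), 18.01 and 20.7 (Cnot4-null LZ), 9.34 and 10.3 (WT PD) and 37.6 and 42.03 (Cnot4-null PD), and Tuba1c at 1.67 and 1.33 FPKM (WT LZ), 2.63 and 1.99 (Cnot4-null LZ), 0.217 and 0.132 (WT PD) and 8.399 and 6.93 (Cnot4-null PD). Both repeated the order, except that WT PD and WT LZ came close for Tuba1b. The change between genotypes at PD was 3.503 (SE 0.35, adjusted p 0.00036) for Tuba1a, 1.92 (SE 0.32, adjusted p 0.00294) for Tuba1b and 2.88 (SE 0.26, adjusted p 0.000287) for Tuba1c. All 3 kept their sign under the other scalings, at 2.61 and 2.49, 1.46 and 0.55, and 1.7997 and 2.18, but the call of Tuba1b was lost with the common median (adjusted p 0.178). The call for Tuba1c from LZ to PD in WT was lost without each of WT PD replicate 1 and WT PD replicate 2 in turn (-1.14 and -1.03). Without WT LZ replicate 2, Tuba1b was called lower in WT (-1.105). Of their 50-base windows, 28.1%, 14.3% and 36.8% are found nowhere else, and 51.4% of those of Tuba1a are shared with Tuba1c. With only uniquely mapped reads kept, the levels of the 3 may be understated to different degrees.

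Beta-tubulin came almost wholly from Tubb4b, the main isotype of motile cilia and flagella. It was at 1217 and 1200.2 FPKM (WT LZ), 1248 and 1056 (Cnot4-null LZ), 1069 and 999 (WT PD) and 1228 and 687 (Cnot4-null PD). WT PD lay below WT LZ without overlap, while each Cnot4-null group overlapped both. The lowest library was Cnot4-null PD replicate 2. It was not called from LZ to PD in WT (-0.23, SE 0.295, adjusted p 0.567) or between genotypes at PD (-0.17, SE 0.295, adjusted p 0.641). Without Cnot4-null PD replicate 1 it was called lower at PD (-0.59). Under quantile normalization its change was -0.52 in WT, called lower, and 0.18 at PD, and with the common median 0.66 in WT and -1.61 at PD, the latter called lower. It was the most abundant member in all 8 libraries and made up 95.8% and 96.8% (WT LZ), 96.1% and 94.9% (Cnot4-null LZ), 99.4% and 99.7% (WT PD) and 94.0% and 85.4% (Cnot4-null PD) of summed beta-tubulin FPKM. Of its 50-base windows, 57.9% recur elsewhere in the genome, and 40.5% are found nowhere else. With only uniquely mapped reads kept, its level and its share may be understated.

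Tubb5, a beta-tubulin of most dividing cells, was at 47.99 and 31.3 FPKM (WT LZ), 38.8 and 47.4 (Cnot4-null LZ), 3.2001 and 0.961 (WT PD) and 50.5 and 91.1 (Cnot4-null PD). WT PD lay far below the other 3 groups, and Cnot4-null PD lay above LZ. Its change was -3.79 (SE 0.44, adjusted p 0.000269) in WT and 4.58 (SE 0.44, adjusted p 0.000336) between genotypes at PD, the largest of any member there, with 3.91 and 3.41 under the other scalings. It supplied 3.86% and 11.3% of beta-tubulin in Cnot4-null PD, 0.297% and 0.0960% in WT PD and 2.52% to 4.26% in LZ. Since 98.6% of its 50-base windows are found nowhere else, near-identical copies bear on it little.

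The other beta-tubulins were low. Tubb6, found in many somatic tissues, was at 1.31 and 3.25 FPKM (WT LZ), 5.19 and 3.15 (Cnot4-null LZ), 3.41 and 1.68 (WT PD) and 20.5 and 13.1 (Cnot4-null PD). Only Cnot4-null PD stood out, and the change there was 2.34 (SE 0.43, adjusted p 0.00424), with 1.35 and 1.15 under the other scalings. Tubb3, best known from neurons, was at 1.95 and 3.87 FPKM (WT LZ), 2.2999 and 2.33 (Cnot4-null LZ), 0.337 and 0.0772 (WT PD) and 3.68 and 5.97 (Cnot4-null PD), with WT PD below every other library. Its change was -1.66 (SE 0.35, adjusted p 0.00474) in WT and 2.25 (SE 0.35, adjusted p 0.00208) at PD, with 1.05 and 1.58 under the other scalings. Tubb2a, also a neuronal isotype, was at 2.11 and 1.78 FPKM (WT LZ), 4.27 and 3.88 (Cnot4-null LZ) and 3.43 and 5.79 (Cnot4-null PD), and both libraries of WT PD had it listed at 0. It was called lower in WT PD than in WT LZ (adjusted p 0.00266) and higher in Cnot4-null PD than in WT PD (adjusted p 0.000699), and it shares 46.4% of its 50-base windows with Tubb2b. All 4 beta-tubulins called higher at PD kept that direction under both other scalings.

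The promoters of the most abundant tubulins are shown because these 3 genes make up the bulk of tubulin FPKM. They were chosen after their values were seen. They are the 250 bases before the start of Tubb4b (chr2:25224703-25224952, strand -), Tuba3a (chr6:125286082-125286331, strand -) and Tuba3b (chr6:145615713-145615962, strand +), with CCAAT and TTTGAA or its complement TTCAAA in capitals. Tubb4b holds CCAAT 5 times, which is the most among the 47 matched members, Tuba3a 3 times and Tuba3b 2 times. CCAAT was present in 9 of 16 tubulin promoters (56.2%).
Tubb4b: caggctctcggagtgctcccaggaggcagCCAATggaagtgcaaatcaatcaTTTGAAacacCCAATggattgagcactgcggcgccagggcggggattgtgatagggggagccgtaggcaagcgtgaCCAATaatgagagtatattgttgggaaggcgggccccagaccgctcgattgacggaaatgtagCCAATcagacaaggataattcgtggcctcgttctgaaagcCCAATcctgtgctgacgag
Tuba3a: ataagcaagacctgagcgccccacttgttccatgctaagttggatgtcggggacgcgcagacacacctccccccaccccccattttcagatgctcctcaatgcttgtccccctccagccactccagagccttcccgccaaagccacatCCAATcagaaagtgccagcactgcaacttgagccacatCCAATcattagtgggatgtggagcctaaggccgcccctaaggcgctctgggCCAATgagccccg
Tuba3b: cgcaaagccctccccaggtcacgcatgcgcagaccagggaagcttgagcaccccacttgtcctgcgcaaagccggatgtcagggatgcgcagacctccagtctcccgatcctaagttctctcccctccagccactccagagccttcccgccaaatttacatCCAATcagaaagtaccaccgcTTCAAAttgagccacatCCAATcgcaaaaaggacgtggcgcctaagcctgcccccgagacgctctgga

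Gamma-tubulin came from Tubg1, which caps and nucleates microtubules. It was at 37.3 and 38.3 FPKM (WT LZ), 28.8 and 32.7 (Cnot4-null LZ), 3.46 and 2.17 (WT PD) and 15.1 and 11.8 (Cnot4-null PD). LZ exceeded PD in both genotypes, and Cnot4-null PD exceeded WT PD, without overlap. Its change was -3.37 (SE 0.24, adjusted p 4.29e-05) in WT, -1.14 (SE 0.24, adjusted p 0.00852) in Cnot4-null and 1.94 (SE 0.24, adjusted p 0.000925) between genotypes at PD, with 0.896 and 0.73 under the other scalings. Tubg2 stayed below 1 FPKM, was listed at 0 in 3 libraries, and shares 14.3% of its 50-base windows with Tubg1.

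Delta- and epsilon-tubulin, which stabilise the triplet microtubules of the centriole, moved apart. Tubd1 was at 7.75 and 5.47 FPKM (WT LZ), 8.98 and 7.94 (Cnot4-null LZ), 63.3 and 49.6 (WT PD) and 30.6 and 15.3 (Cnot4-null PD). PD exceeded LZ, and WT PD exceeded Cnot4-null PD, without overlap. Tube1 was at 13.2 and 10.96 FPKM (WT LZ), 9.95 and 7.99 (Cnot4-null LZ), 4.89 and 3.401 (WT PD) and 5.24 and 5.06 (Cnot4-null PD), with LZ above PD and Cnot4-null PD just above WT PD. The change of Tubd1 was 2.92 (SE 0.34, adjusted p 0.000292) in WT and -1.33 (SE 0.34, adjusted p 0.0158) at PD, and that of Tube1 was -1.36 (SE 0.25, adjusted p 0.00281) and 0.27 (SE 0.25, adjusted p 0.382). Tubd1 kept its sign at PD under the other scalings (-1.52 and -2.72), while Tube1 changed to -1.04 and -0.91. The call for Tubd1 at PD was lost without each of Cnot4-null PD replicate 2, WT PD replicate 1 and WT PD replicate 2 in turn (-0.85, -1.15 and -1.501).

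**Figure D4:**
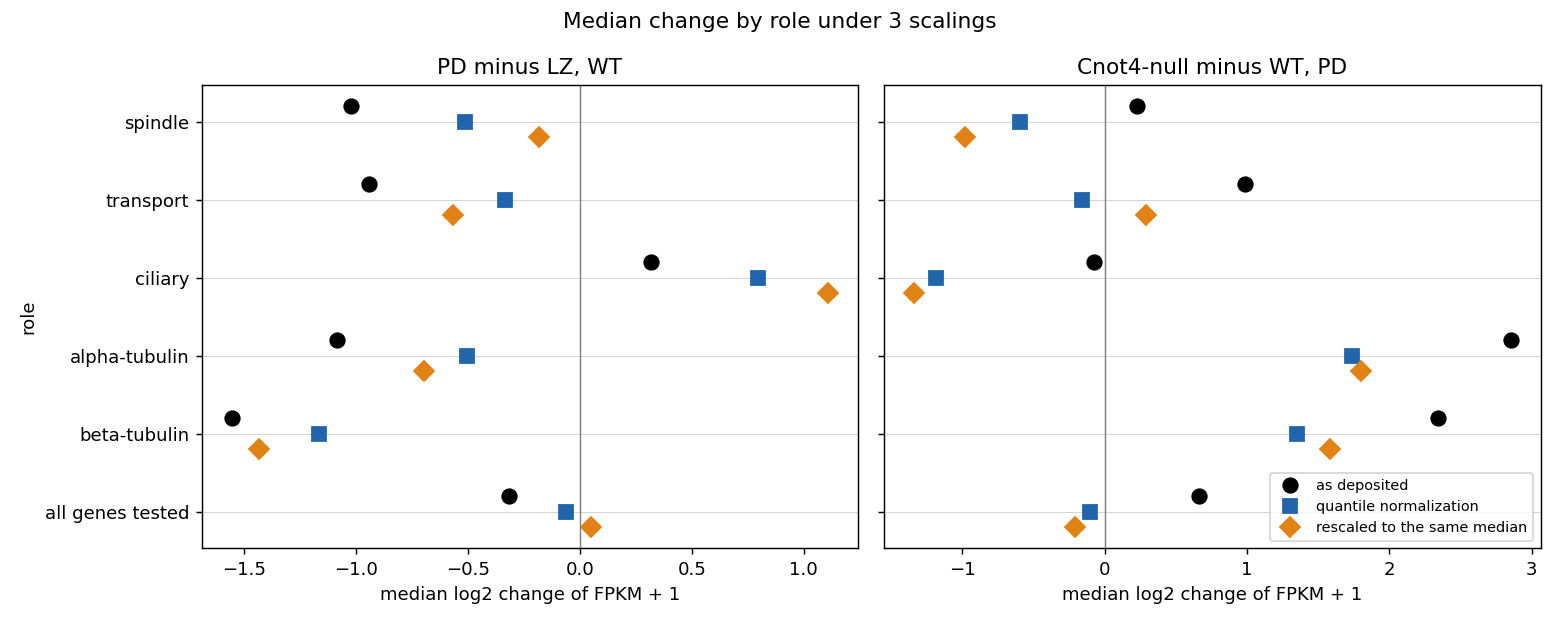
Median log2 change of the tested members of 5 roles and of all genes tested, from LZ to PD in WT (left) and between Cnot4-null and WT at PD (right), under the deposited scale, quantile normalization and a common median. On the right, only the alpha- and beta-tubulin medians stay above 0 in all 3.

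The members called at PD did not all follow the same Cnot4-null PD library. All 7 called lower (Kif2a, Kif3b, Kif6, Kif9, Kif16b, Kif20a and Tubd1) were higher in replicate 1 than in replicate 2, with a median ratio of 1.63, so replicate 1 lay nearer to WT PD. Of the 22 called higher, 10 were higher in replicate 1 and 12 in replicate 2, with a median ratio of 0.864. All 5 transport kinesins called higher were higher in replicate 2, with a median ratio of 0.598. The 10 tubulins called higher split evenly, with a median ratio of 1.05, the same as over all 15121 genes above 1 FPKM in either library, of which 7989 were higher in replicate 1.

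Beside these, the Leydig markers had a median ratio of 0.529 between the replicates, the Sertoli markers 0.526, the myoid markers 0.205, the spermatogonial markers 0.782, the spermatid markers 2.07 and the pachytene markers 2.03. Tuba8 and Kif2b, with 78.3 and 28.9 and 118 and 48.6 FPKM, were higher where spermatid markers were higher. Tubb5, Tuba1a and Kif5b, with 50.5 and 91.1, 15.1 and 25.5 and 16.5 and 28.5 FPKM, were higher where Leydig and myoid markers were higher. These genes were picked after their values were seen, and with 2 libraries the part of such cells in them was not tested.

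**Figure D5:**
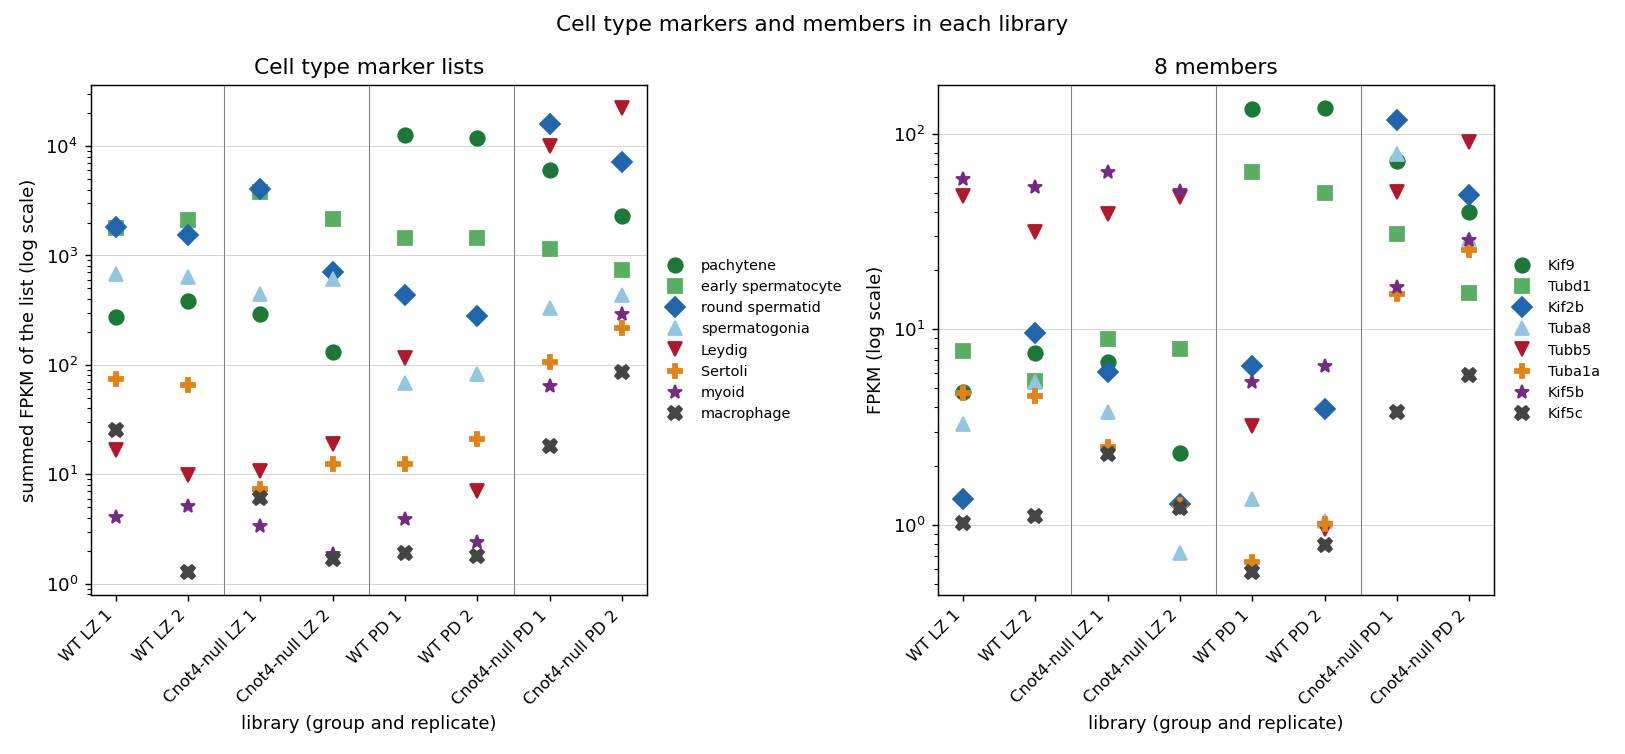
Summed FPKM of 8 cell type marker lists (left) and FPKM of 8 members chosen after their values were seen (right) in each library, both on log scales. Leydig and spermatid marker sums reach 22204 and 16026 FPKM in Cnot4-null PD, where Kif2b, Tuba8, Tubb5 and Tuba1a also lie above their WT PD values.

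Other genes of the same machinery were read as lists. Beside their counts and medians stand those of all genes tested, with 41.6% called higher and 11.5% lower at PD (median 0.66) and 21.6% higher and 36.2% lower from LZ to PD in WT. The lists were not divided by chromosome, and genes on X were not set apart. Of 648 tested genes on X, 482 were called higher and 2 lower at PD, with a median of 1.95. The part of this shift of X in the changes named below was not tested. The 4 kinesins of the minus-end-directed kinesin-14 family included 0 called by limma between genotypes at PD (0 at an unadjusted p under 0.05), with a median of 0.42, and 1 higher and 1 lower from LZ to PD in WT. Kifc1, the best studied of them, was at 3.599 and 2.15 FPKM (WT LZ), 4.32 and 2.99 (Cnot4-null LZ), 0.242 and 0.609 (WT PD) and 1.099 and 1.61 (Cnot4-null PD), lowest in WT PD. The sum of the family went the other way, from 9.62 and 7.08 FPKM in WT LZ to 12.2 and 13.4 in WT PD. Kifc3 was its most abundant gene in all PD libraries. Of 11 tested partners of transport kinesins, 5 were called higher and 1 lower at PD, with a median of 0.54, and 1 and 6 from LZ to PD in WT. The cargo adaptors and light chains with the largest changes were Klc3 (2.06, SE 0.48, adjusted p 0.0111), Klc1 (1.87, SE 0.44, adjusted p 0.0108) and Mapk8ip3 (1.403, SE 0.33, adjusted p 0.0111). Under the other scalings they were 0.74 and 1.196, 0.63 and 0.86, and 0.32 and 0.204, and none was called. The calls of Klc3 and Mapk8ip3 were also lost without either WT PD library (2.12 and 2.01, and 1.35 and 1.46), that of Klc3 without Cnot4-null PD replicate 2 (1.64) and that of Klc1 without WT PD replicate 1 (1.56). With only the libraries compared, Klc1 and Mapk8ip3 were not called (adjusted p 0.0651 for both). Klc1, a light chain of conventional kinesin, was at 20.96 and 15.2 FPKM (WT LZ), 17.02 and 18.2 (Cnot4-null LZ), 0.762 and 1.71 (WT PD) and 4.17 and 11.4 (Cnot4-null PD). It was lowest in WT PD.

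Of 31 tested partners of spindle kinesins, 6 were called higher and 8 lower at PD (41.6% and 11.5% of all genes), with a median of -0.39, and 4 and 16 from LZ to PD in WT (21.6% and 36.2% of all genes). Sgol1, which protects centromeric cohesion, was higher (1.87, SE 0.23, adjusted p 0.000895), while Aurka, a spindle pole kinase, and Nuf2, a kinetochore protein, were lower (-1.65, SE 0.37, adjusted p 0.00929, and -1.597, SE 0.25, adjusted p 0.00209). Under the other scalings Sgol1 was at 0.497, not called, and 0.89, Aurka at -1.399 and -3.07 and Nuf2 at -1.59 and -3.0002. The call of Aurka was lost without either WT PD library (-1.58 and -1.72) and with only the libraries compared (adjusted p 0.061). Aurka was at 50.8 and 65.7 FPKM (WT LZ), 64.5 and 61.1 (Cnot4-null LZ), 196 and 178 (WT PD) and 90.1 and 38.6 (Cnot4-null PD), with WT PD highest and the Cnot4-null PD libraries on either side of LZ. Of 19 tested genes of the gamma-tubulin ring and augmin complexes, 6 were higher and 2 lower, with a median of 0.33, and 3 and 10 from LZ to PD in WT. Haus7 (4.64, SE 0.41, adjusted p 0.000281) and Haus8 (2.06, SE 0.204, adjusted p 0.000366) of augmin and Akap9, an anchor for nucleation at the Golgi, (2.78, SE 0.32, adjusted p 0.000659) changed most. They were called under the other scalings too, at 3.91 and 3.599, 1.09 and 0.83, and 1.6997 and 1.83. Haus7 was at 61.6 and 49.8 FPKM (WT LZ), 86.9 and 47.6 (Cnot4-null LZ), 1.57 and 0.434 (WT PD) and 36.1 and 60.5 (Cnot4-null PD), lowest in WT PD.

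Of 21 tested genes for tubulin folding, 4 were higher and 5 lower, with a median of -0.52, and 9 and 7 from LZ to PD in WT. Vbp1, of the prefoldin chaperone, was higher (3.35, SE 0.24, adjusted p 0.000168), and Tcp1 and Cct6b, of the CCT chaperonin, were lower (-1.74, SE 0.38, adjusted p 0.00841, and -1.73, SE 0.43, adjusted p 0.0139). The 3 were called under the other scalings too, at 2.44 and 2.26, -1.45 and -3.17, and -1.42 and -3.15. The call was lost without WT PD replicate 1 for Tcp1 and Cct6b (-1.602 and -1.59) and without WT PD replicate 2 for Cct6b (-1.87), with only the libraries compared for both (adjusted p 0.0624 and 0.0759), and with no filter for Cct6b (0.0571). Of 25 tested tubulin-modifying genes, 12 were higher and 5 lower (41.6% and 11.5% of all genes), with a median of 0.47, below the 0.66 of all genes, and 12 and 4 from LZ to PD in WT. The largest called changes at PD were those of the deacetylase gene Hdac6 (3.89, SE 0.23, adjusted p 0.000108), the glycylase gene Ttll10 (3.197, SE 0.41, adjusted p 0.000966) and the carboxypeptidase gene Vash2 (2.51, SE 0.27, adjusted p 0.000492), which were called under the other scalings at 3.03 and 2.899, 2.23 and 2.11, and 1.31 and 1.57. Of 6 tested severing genes, limma called 0 higher (0 at an unadjusted p under 0.05) and 3 lower, namely Katnal2 (-1.79, SE 0.42, adjusted p 0.0108), Katnal1 (-1.11, SE 0.39, adjusted p 0.0469) and Fignl1 (-1.02, SE 0.21, adjusted p 0.00683), with a median of -0.84, and 4 were higher and 1 lower from LZ to PD in WT. All 3 were called under the other scalings, at -2.59 and -3.096, -1.71 and -2.45, and -1.12 and -2.41. The call was lost for Katnal1 without any library except Cnot4-null PD replicate 1 (-1.21 to -0.57), for Katnal2 without either WT PD library or Cnot4-null PD replicate 2 (-1.89 to -1.39) and for Fignl1 without WT PD replicate 2 (-0.903). It was also lost with no filter (adjusted p 0.114), only the libraries compared (0.109) or a replicate block (0.0594) for Katnal1, and with a pseudocount of 0.1 for Katnal1 and Katnal2 (0.0615 and 0.0683). For kinesin-14, the partners of transport kinesins, the gamma-tubulin complexes and the modifying genes, the sign of the median turned negative under both other scalings. It stayed negative for the spindle partners, folding and severing genes. No gene was found under the symbols Kif1bp, Kbp, Spdl1, Pfdn6, Svbp, Tpgs1 and Tpgs2.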

How the data were processed

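RNA sequencing of 8 libraries was used, 2 from each of 4 groups of sorted spermatocytes. The deposited values are FPKM, fragments scaled to transcript length and to mapped reads, which the authors computed with Cufflinks 2.2.1 on UCSC gene models after trimming reads to 50 bases, mapping them to mm9 with TopHat2 2.1.1 and keeping uniquely mapped reads. No scaling between libraries was described and none was added. The deposited files hold no read counts, so the number of reads behind each value, and with it the precision of low values, is unknown from them, and the read totals that the study reports were not used. The spacing of low FPKM gave a rough relative depth, since only 23.0% to 28.9% of low genes had the commonest ratio to WT LZ replicate 1. It ran from 0.823 (Cnot4-null PD replicate 2) to 1.33 (WT PD replicate 2) of that library, a span of 1.61 times. This is wider than the span of the reported read totals, so both the span and the order of the libraries are uncertain. The sample labels name TruSeq libraries of total RNA and the methods name Smart-Seq2, so the preparation, on which the precision of low values also depends, is uncertain.

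Genes above 1 FPKM in at least 1 library were fitted on log2(FPKM + 1) in limma 3.58.1 (R 4.3.3), with 1 mean for each group and eBayes with a trend, on 4 residual degrees of freedom. The comparisons were PD against LZ in each genotype, Cnot4-null against WT at each stage, and the interaction. P-values were adjusted by Benjamini and Hochberg over all genes tested, with a threshold of 0.05. On data simulated with known changes between genotypes at PD, the fit of 15899 genes called 9 of 59 genes changed by a log2 of 1, 49 of 71 changed by 2 and 59 of 70 changed by 3, and 6 of its 123 calls were false. No other gene was changed between genotypes there, and no shift of scale was added. In the data, 41.6% of genes were called higher and 11.5% lower at PD. The simulated rates of recovery and of false calls therefore do not describe the calls reported here.

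Members and lists were chosen with earlier results of these data known. Values in every library are given, in each role, for up to 4 members with the highest mean FPKM and up to 4 with the largest called changes in Cnot4-null against WT at PD and in PD against LZ in WT, and other members by range and count. From each list of other genes, up to 3 with the largest called changes at PD are named. Kifc1 and some marker genes are named outside this rule. The lists were the kinesin-14 family, partners of transport kinesins, partners of spindle kinesins, gamma-tubulin and augmin complexes, tubulin folding, modification and severing, and markers of early spermatocytes, pachytene cells, spermatogonia, round spermatids, Sertoli, Leydig, myoid and endothelial cells and macrophages.

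Alternatives were no filter, a mean FPKM of at least 5, a pseudocount of 0.1, quantile normalization, rescaling to a common median, eBayes without trend, only the libraries compared, a replicate block, and each library left out. Transcripts were read in windows of 50 bases for sequence found elsewhere. Promoters were read on both strands for the 3 motifs named in the report. Protein sequences were not analysed here.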

Additional observations from a re-analysis of the deposited data

Results flagged for a closer look

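The difference between genotypes was not the same at the 2 stages for 15 members, as tested by the interaction of stage and genotype over all genes. It was positive for 13 (27.7% of those tested, against 26.0% of all genes) and negative for 2 (4.26% against 3.97%), so the shares were near those of all genes. Among kinesins, the log2 change between genotypes at PD minus that at LZ was 2.68 (SE 0.35, adjusted p 0.00282) for Kif17, -1.603 (SE 0.47, adjusted p 0.04) for Kif2a, 3.97 (SE 1.17, adjusted p 0.0408) for Kif2b, 2.06 (SE 0.36, adjusted p 0.00744) for Kif4 and 1.68 (SE 0.401, adjusted p 0.0211) for Kif5b. Among alpha-tubulins it was 4.498 (SE 0.49, adjusted p 0.0018) for Tuba1a, 1.62 (SE 0.46, adjusted p 0.036) for Tuba1b, 2.48 (SE 0.37, adjusted p 0.00424) for Tuba1c, 2.95 (SE 0.49, adjusted p 0.00601) for Tuba4a and 5.34 (SE 0.85, adjusted p 0.00529) for Tuba8. Among the other tubulins it was 1.67 (SE 0.41, adjusted p 0.023) for Tubb2a, 2.44 (SE 0.49, adjusted p 0.0119) for Tubb3, 4.44 (SE 0.62, adjusted p 0.00348) for Tubb5, -1.66 (SE 0.49, adjusted p 0.0408) for Tubd1 and 2.23 (SE 0.35, adjusted p 0.00485) for Tubg1. Tubb2a was listed at 0 in WT PD, so its value depends on the pseudocount. Over all genes tested the median of this difference was 0.64, and -0.13 and -0.30 under quantile normalization and the common median.

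With each library left out in turn, the call was kept for Kif17, Kif4, Tuba1a, Tuba1c, Tuba4a, Tuba8, Tubb5 and Tubg1. It was lost for Kif2a, Kif5b and Tubb2a without any 1 of the 4 LZ or the 2 WT PD libraries, at -1.84 to -1.36, 1.53 to 1.84 and 1.59 to 1.75. For Kif2b it was lost without any 1 library except WT LZ replicate 1 (2.89 to 4.79), for Tuba1b without any except WT LZ replicate 2 (1.12 to 1.71) and for Tubd1 without any except Cnot4-null PD replicate 1 (-1.87 to -1.18). For Tubb3 it was lost without Cnot4-null LZ replicate 2 (2.45), WT PD replicate 1 (2.6003) or WT PD replicate 2 (2.29). Under the other 2 scalings all 15 kept their sign, but not all their call. Quantile normalization lost it for Kif2b (adjusted p 0.0587), Kif4 (0.137), Kif5b (0.167), Tuba1b (0.156), Tubb2a (0.138), Tubb3 (0.115) and Tubg1 (0.0519). The common median lost it for Kif2b (0.0946), Kif5b (0.485), Tuba1b (0.719) and Tubg1 (0.0668).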

How the results depend on the processing

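In each fit that leaves out 1 library, the lone library of its group is assumed to vary like the other groups. For results that moved, the cause was not tested unless fewer genes or libraries entered the fit.

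With a mean FPKM of at least 5, which leaves 31 members, 14 were called higher between genotypes at PD (39.3% of its 9348 genes) and 16 lower from LZ to PD in WT (43.9%). The median change in WT was then -0.88 for spindle kinesins, 0.13 for transport and ciliary kinesins and -0.93 for tubulins, and at PD 0.17 for transport and ciliary kinesins and 1.93 for tubulins. With no filter, 3 members were lower at PD (5.53% of all genes), limma called 0 negative in the interaction (1.69%), and the medians were -0.55 for transport and ciliary kinesins and -0.61 for tubulins in WT and 1.92 for tubulins at PD. With a pseudocount of 0.1 the medians of transport and ciliary kinesins were -1.32 in WT and 1.14 at PD, and those of tubulins -1.74 and 2.73. With only the libraries compared, 6 members were lower from LZ to PD in Cnot4-null (7.94% of all genes) and 4 at PD between genotypes (5.67%).

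Quantile normalization gave 14 higher and 12 lower at PD and 6 positive and 6 negative in the interaction. The medians were -0.51 and -0.60 for spindle kinesins in WT and at PD, -0.21 and -0.41 for transport and ciliary kinesins and -0.65 and 1.35 for tubulins. With the common median, 21 were lower at PD and 18 negative in the interaction, and the medians were -0.18 and -0.98, -0.34 and -0.17, and -0.69 and 1.15.

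At PD, 13 of the 47 changes turned over with quantile normalization. Of these, 5 were called on the deposited scale or this one: Kif14 -0.90, Kif18b -1.13, Kif21b -0.42, Kif7 -1.29 and Tube1 -1.04. With the common median 13 turned over and 11 were called on either scale, Kif11 -1.09, Kif15 -1.29, Kif18b -0.98, Kif1b -0.21, Kif22 -0.36, Kif23 -0.42, Kif27 -1.14, Kif2c -0.75, Kif3a -1.22, Kif7 -0.81 and Tube1 -0.91. In WT, 3 and 9 turned over, of which 3 were called on either scale, all with the common median, Kif20b 0.16, Kif2c 0.20 and Kif3a 0.31.

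Leaving out each library in turn gave 8 to 13 higher (18.2% to 32.3% of all genes) and 7 to 14 lower (9.01% to 20.1%) from LZ to PD in Cnot4-null, 14 to 21 higher (22.9% to 44.5%) and 0 to 10 lower (2.59% to 18.1%) at PD, and 8 to 16 positive (10.1% to 36.8%) and 0 to 4 negative (0.333% to 13%) in the interaction. The median of spindle kinesins ran from -1.06 to -0.82 in WT and from 0.23 to 0.39 at PD, and that of tubulins at PD from 1.98 to 2.41. From LZ to PD in WT, 5 to 8 were higher (16.3% to 24.3%) and 18 to 29 lower (27.3% to 39.6%). At LZ limma called 0 between genotypes in each of these fits.

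Of the 22 members called higher at PD, 11 kept the call in each alternative that tested them, Kif4, Tuba1a, Tuba4a, Tuba8, Tubb5, Tubb6 and Tubg1 in all, and Kif17, Tuba1c, Tubb2a and Tubb3 in all but the mean of at least 5, which left them out. Of the 7 called lower 0 did. In WT, 5 of 7 higher and 13 of 25 lower calls were kept in each alternative that tested the member. Whether the replicate numbers pair libraries is not stated in the labels or methods. A replicate block left all 47 members at PD with the same direction and side of the threshold, and 45 in WT. The comparison of protein identity and C-terminal tails was not run.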
